A study of Mus musculus with 8 samples.

Results

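The slow and fast muscle fibre isoforms described here are 10 genes of the contractile apparatus of skeletal muscle, out of 49671 genes in the count table. They are 4 slow isoforms (Tnnt1, Tnni1, Tnnc1 and Myh7) and 6 fast isoforms (Tnnt3, Tnni2, Tnnc2, Myh1, Myh2 and Myh4), and all 10 were found by symbol. They were chosen by the measured knockout to wild-type difference of Tnnt1, which was lower in Flg knockout skin, so the knockout to wild-type values of all 10 are given as a description and support nothing. The libraries came from shaved whole back skin of 8-week-old mice: 4 were labelled ko/ko at Flg and 4 wt/wt at Flg. No other allele, agent, strain or sex is named in the labels. Whether each library is a separate mouse is not stated there either, so each SD below is the spread between libraries. Standard errors (SE) of log2 fold changes come from the fit to these libraries.

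Skeletal muscle fibres shorten when calcium binds troponin C, which releases the brake that troponin I puts on actin and myosin, while troponin T anchors the complex to tropomyosin. Each subunit is encoded by separate slow-fibre and fast-fibre genes, and the myosin heavy chain sets the shortening speed of a fibre. In mouse back skin, striated muscle lies beneath the dermal fat as a thin sheet, the panniculus carnosus, which is known as a mainly fast muscle. Whole skin also holds epidermis, hair follicles, fat, vessels and nerves, so a level here is an average over all of them, and fewer cells of a type cannot be told apart from less RNA per cell.

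Flg itself, the targeted gene, had 22.3 to 26.6 counts per 1000000 counts of the library (CPM) in knockout libraries, against 48.0 to 67.6 CPM in wild-type libraries. Library totals ran between 18483242 and 38545957 counts. Keratinocyte markers of the basal and suprabasal layers (7 genes) summed to between 8183 and 10210 CPM in knockout skin and to between 10193 and 10723 CPM in wild-type skin. Skeletal muscle markers common to all fibre types (27 genes, such as Acta1, Ckm, Ttn and Neb) summed to between 19535 and 21373 CPM in knockout skin and to between 14469 and 22292 CPM in wild-type skin. Both tissues were therefore present in every library.

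The fast isoforms carried almost all of the signal of the family. Together the 10 genes took between 0.789% and 1.33% of all counts of a library. The 4 slow isoforms summed to between 2.43 and 3.73 CPM in knockout libraries and to between 4.94 and 12.05 CPM in wild-type libraries. The 6 fast isoforms summed to between 10168 and 13339 CPM in knockout libraries and to between 7881 and 11602 CPM in wild-type libraries.

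Levels of different genes were compared per kilobase of exon (RPKM). In this unit fast troponin T, Tnnt3, was highest, at 1272 ± 124 RPKM in knockout and 1199 ± 196 RPKM in wild type (SD, n = 4 each). Myosin IIB, Myh4, came next at 794 ± 191 RPKM in knockout and 577 ± 69.7 RPKM in wild type. Fast troponin I, Tnni2, stood at 609 ± 62.6 RPKM in knockout and 587 ± 100 RPKM in wild type, and myosin IIX, Myh1, at 527 ± 122 RPKM in knockout and 502 ± 208 RPKM in wild type. Myh4, Tnni2 and Myh1 lay within each other's spread in wild type. Myosin IIA, Myh2, was lower at 86.4 ± 13.8 RPKM in knockout and 83.6 ± 31.1 RPKM in wild type. The slow isoform with the highest level was Tnnt1, at 1.07 ± 0.243 RPKM in knockout and 3.12 ± 1.21 RPKM in wild type. Slow and cardiac troponin C, Tnnc1, stood at 0.334 ± 0.0920 RPKM in knockout and 0.403 ± 0.106 RPKM in wild type. Slow troponin I, Tnni1, averaged 0.0792 ± 0.0489 RPKM in knockout and 0.251 ± 0.112 RPKM in wild type. Slow myosin, Myh7, was last at 0.0267 ± 0.0113 RPKM in knockout and 0.0244 ± 0.00576 RPKM in wild type. Fast troponin C, Tnnc2, lay among the slow isoforms at 0.249 ± 0.0923 RPKM in knockout and 0.335 ± 0.0180 RPKM in wild type, and its exons overlap those of another gene, as described further on.

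**Figure D1:**
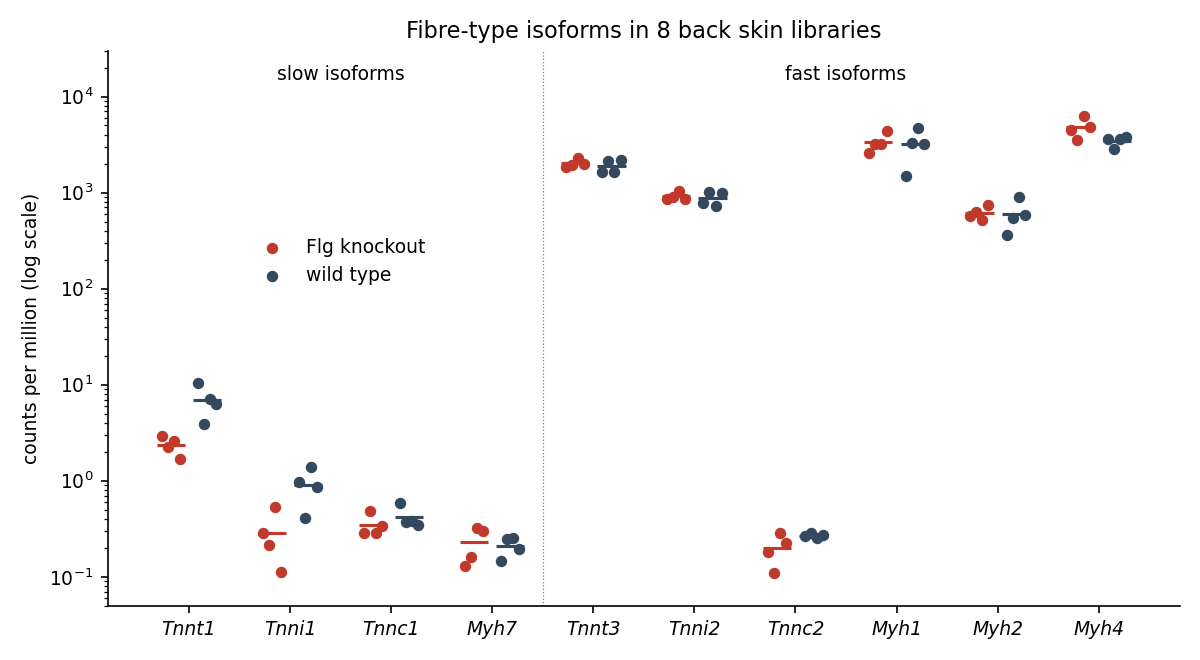
Level of each isoform in every library, in CPM on a log scale, with knockout libraries in red and wild-type libraries in dark blue, and the group mean as a line. Tnnt1 is the gene whose groups do not overlap, at 1.68 to 2.93 CPM in knockout and 3.92 to 10.4 CPM in wild type, and Tnnc2 lies far below the other 5 fast isoforms.

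Tnnt1 (ENSMUSG00000064179, chromosome 7, positions 4504570 to 4516382 on the minus strand, mm10) encodes slow skeletal troponin T. It had 2.93, 2.22, 2.59 and 1.68 CPM in knockout replicates 1 to 4. In wild-type replicates 1 to 4 it had 10.4, 3.92, 7.01 and 6.26 CPM. Every knockout library lay below every wild-type library, with wild-type replicate 2 closest to the knockout range and wild-type replicate 1 farthest from it. These values rest on 113, 41, 64 and 45 counts in knockout and 355, 96, 167 and 161 counts in wild type. The mean was 34.2% of wild type. The fitted log2 fold change of knockout over wild type was -1.52 ± 0.29 (SE), at a Benjamini-Hochberg adjusted p of 0.0406 in edgeR, and these are the values by which the family was picked. Leaving out 1 library at a time, the adjusted p in edgeR ran between 0.0064 and 0.131. It stayed under 0.05 without wild-type replicate 2 or 3 and was above it without any of the other 6 libraries, while the log2 fold change stayed between -1.72 and -1.26.

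Of the 10 isoforms, 7 passed the filter on low counts, and 1 of the 7, Tnnt1, was called lower, with 0 called higher. Over all 19099 genes tested, 0.702% were called lower, 0.712% higher and 1.41% in either direction, while 11.3% had groups that did not overlap in CPM. Tnnt1 was also the 1 isoform of 10 whose groups did not overlap in CPM, where 6.69% of all tested genes lay wholly lower in knockout. Because the contrast chose the family, nothing is read from these counts.

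The start region of Tnnt1 is shown because its RNA is the one that differed. RefSeq (GRCm38.p6) places this window from 250 bases before to 50 bases after a start of transcription. Capitals mark matches to the E-box, CANNTG, which muscle-determining factors such as MyoD bind, and to the TATA box, TATAAA. Both were searched on both strands.
Tnnt1, chr7:4515926-4516225, minus strand: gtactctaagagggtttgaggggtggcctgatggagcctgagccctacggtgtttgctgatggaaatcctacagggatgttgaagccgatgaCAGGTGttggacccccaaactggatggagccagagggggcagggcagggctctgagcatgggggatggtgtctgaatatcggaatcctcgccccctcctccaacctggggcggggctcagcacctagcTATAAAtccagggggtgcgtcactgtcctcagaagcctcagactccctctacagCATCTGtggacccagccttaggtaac
An E-box began 158 bases before the start and another 24 bases after it, and the TATA box began 30 bases before it. Of the 32851 promoter windows of the same length in the RefSeq table, 72.3% held at least 1 E-box and 13.6% held a TATAAA match. A match is a string of letters and not a measured site.

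Slow troponin I followed a like order at a lower level. Tnni1 (ENSMUSG00000026418, chromosome 1, positions 135779434 to 135810989) had 0.285, 0.216, 0.527 and 0.112 CPM in knockout, from 11, 4, 13 and 3 counts. In wild type it had 0.963, 0.408, 1.39 and 0.855 CPM, from 33, 10, 33 and 22 counts. The groups overlapped, since knockout replicate 3 was above wild-type replicate 2. Its fitted log2 fold change was -1.62 ± 0.47 (SE) and did not pass (edgeR adjusted p = 0.104). It met the filter on low counts mainly through the wild-type libraries, where it is high, so this test supports nothing. Per kilobase, Tnnt1 stood at 8.04 to 24.5 times Tnni1 in knockout libraries and at 8.27 to 17.6 times Tnni1 in wild-type libraries, so the ratio of the pair overlapped between genotypes.

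The other slow isoforms were close to the counting limit. Tnnc1 (ENSMUSG00000091898) lies on chromosome 14 at positions 31208312 to 31211729, and Myh7 (ENSMUSG00000053093) on the same chromosome at positions 54970688 to 54994634. Tnnc1 had 7 to 11 counts per library in knockout and 9 to 20 in wild type, and Myh7 had 3 to 8 in knockout and 5 to 6 in wild type. Summed over a group, Tnnc1 came to 0.332 CPM in knockout, with an exact 95% Poisson interval of 0.233 to 0.460. It came to 0.434 CPM in wild type, with an interval of 0.319 to 0.577. Myh7 came to 0.221 CPM in knockout (0.142 to 0.329) and to 0.203 CPM in wild type (0.127 to 0.308). These intervals cover counting error only and leave out the spread between libraries, and they overlap for both genes. Neither gene passed the filter, so a difference between genotypes was not tested for them. Tnnt1 stood at 2.15 to 4.85 times Tnnc1 per kilobase in knockout libraries and at 5.04 to 8.76 times in wild-type libraries. Set against Myh7, it stood at 21.9 to 88.0 times in knockout libraries and at 62.3 to 277 times in wild-type libraries.

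Written as a share of each slow and fast pair, slow transcripts were rare in all libraries. Tnnt1 made up 0.113%, 0.0828%, 0.0809% and 0.0615% of Tnnt1 plus Tnnt3 per kilobase in knockout replicates 1 to 4. In wild-type replicates 1 to 4 it made up 0.456%, 0.130%, 0.308% and 0.206%. The wild-type share varied more between libraries than the knockout share and lay above it in every library. Tnni1 made up 0.0126% ± 0.00654 of its pair in knockout and 0.0458% ± 0.0266 in wild type (SD, n = 4 each), with overlap. Myh7 made up 0.00184% ± 0.000510 of Myh7 plus the 3 fast myosins in knockout and 0.00211% ± 0.000381 in wild type, also with overlap. The slow share was lower in knockout for troponin T, whose slow gene chose the family, and on average for troponin I. For myosin the group means differed by less than 1 SD. The troponin C pair is given further on with Tnnc2. Since Tnnt1 was picked for its fall, these shares are a description and support nothing.

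**Figure D2:**
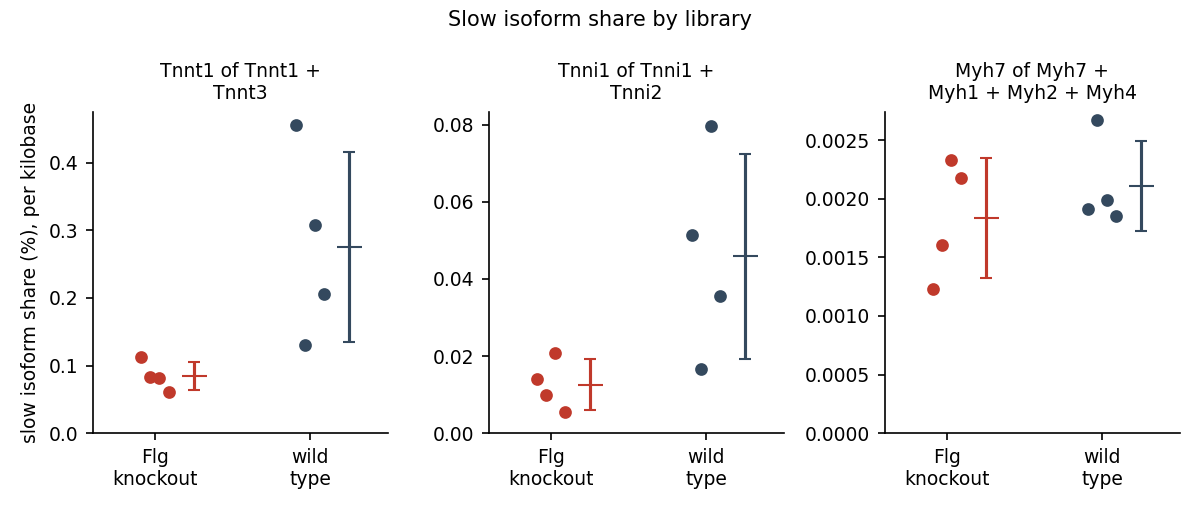
Share of the slow isoform in 3 slow and fast pairs, in percent of counts per kilobase, with a point for each library and the mean ± SD beside the points, on axes that start at 0. In troponin T, whose slow gene chose the family, knockout libraries (left, red) lie apart from wild-type libraries (right, dark blue). The troponin I and myosin pairs overlap.

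The fast troponins lay within overlapping ranges in the knockout and wild-type libraries. Tnnt3 (ENSMUSG00000061723, chromosome 7, positions 142498836 to 142516009) had 1861, 1922, 2301 and 1966 CPM in knockout and 1625, 2157, 1633 and 2174 CPM in wild type. Tnni2 (ENSMUSG00000031097, chromosome 7, positions 142441808 to 142444410) had 848, 901, 1048 and 852 CPM in knockout and 780, 1015, 723 and 1000 CPM in wild type. Both genes were low in wild-type replicates 1 and 3 and high in wild-type replicates 2 and 4, with the knockout libraries in between or just above. The fitted log2 fold changes were 0.11 ± 0.14 for Tnnt3 and 0.07 ± 0.14 for Tnni2 (SE), and neither passed (edgeR adjusted p = 0.710 and 0.797).

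The fast myosins varied more between libraries. Myh4 (ENSMUSG00000057003, chromosome 11, positions 67238029 to 67260446) had 4471, 3517, 6280 and 4830 CPM in knockout and 3610, 2855, 3614 and 3801 CPM in wild type. Knockout replicate 2 fell within the wild-type range and the other 3 knockout libraries above it. Its fitted log2 fold change was 0.48 ± 0.19 (SE) and did not pass (edgeR adjusted p = 0.203). Myh1 (ENSMUSG00000056328, chromosome 11, positions 67200052 to 67224575) had 2586, 3203, 3185 and 4425 CPM in knockout and 1506, 3282, 4738 and 3237 CPM in wild type. Myh2 (ENSMUSG00000033196, chromosome 11, positions 67171027 to 67197517) had 568, 624, 524 and 752 CPM in knockout and 361, 546, 895 and 584 CPM in wild type. For both, wild-type replicate 1 was the lowest and wild-type replicate 3 the highest of the 8 libraries, so the knockout values lay inside the wild-type range. Fitted log2 fold changes were 0.09 ± 0.30 for Myh1 and 0.06 ± 0.24 for Myh2 (SE), with edgeR adjusted p of 0.901 and 0.909.

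Within the fast myosins, the IIB gene made up the larger part in most libraries. Myh4 was 60.4%, 49.7%, 64.5% and 50.04% of the 3 genes per kilobase in knockout and 67.6%, 44.5%, 40.8% and 51.7% in wild type. Myh1 took 31.0% to 43.4% in knockout and 26.7% to 50.7% in wild type, and Myh2 took 4.54% to 7.43% in knockout and 5.70% to 8.52% in wild type. The widest gap was between wild-type replicates 1 and 3, both of the same genotype. Myh1 exceeded Myh4 in wild-type replicates 2 and 3 and in no knockout library.

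**Figure D3:**
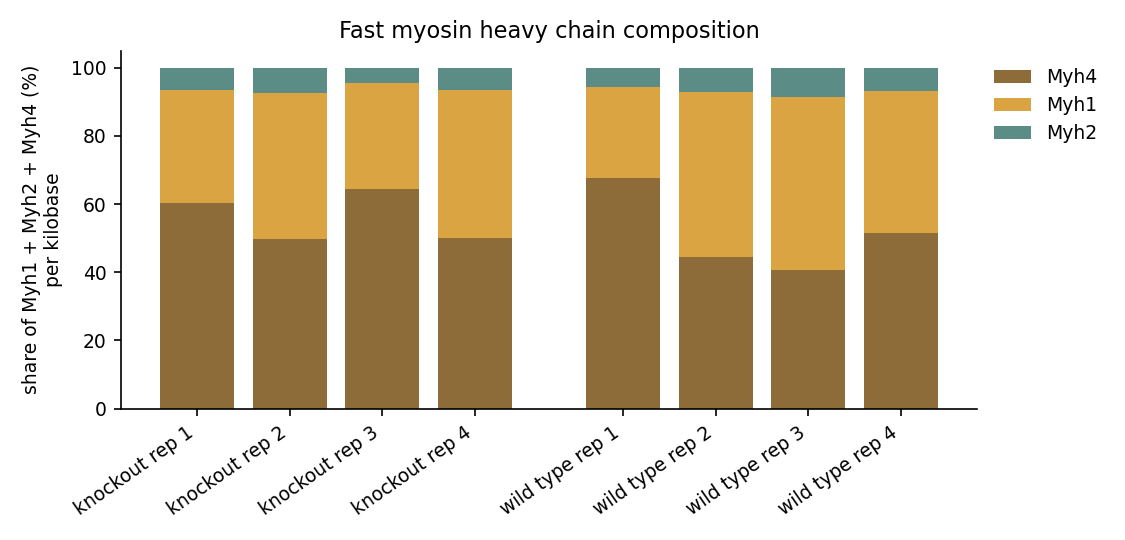
Share of Myh4, Myh1 and Myh2 in their sum per kilobase, in percent, for each library (knockout left, wild type right). The Myh4 part spans 49.7% to 64.5% in knockout and 40.8% to 67.6% in wild type, so the wild-type range contains the knockout range.

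The 3 fast myosin genes lie side by side on chromosome 11, and their start regions are shown because these neighbours were expressed together at high level. Capitals mark the longest run of letters that all 3 RefSeq windows (GRCm38.p6) share.
Myh2, chr11:67170777-67171076, plus strand: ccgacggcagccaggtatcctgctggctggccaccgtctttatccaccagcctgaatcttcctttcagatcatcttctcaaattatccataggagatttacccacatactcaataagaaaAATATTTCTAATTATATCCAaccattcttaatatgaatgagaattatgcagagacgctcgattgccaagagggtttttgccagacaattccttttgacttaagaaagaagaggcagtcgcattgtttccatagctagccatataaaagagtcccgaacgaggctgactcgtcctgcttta
Myh1, chr11:67199852-67200151, plus strand: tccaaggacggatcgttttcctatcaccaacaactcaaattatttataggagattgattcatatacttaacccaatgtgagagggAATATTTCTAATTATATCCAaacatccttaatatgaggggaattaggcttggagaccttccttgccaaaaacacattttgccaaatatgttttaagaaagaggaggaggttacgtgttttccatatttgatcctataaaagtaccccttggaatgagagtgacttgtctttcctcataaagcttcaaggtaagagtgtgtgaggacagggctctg
Myh4, chr11:67237562-67237861, plus strand: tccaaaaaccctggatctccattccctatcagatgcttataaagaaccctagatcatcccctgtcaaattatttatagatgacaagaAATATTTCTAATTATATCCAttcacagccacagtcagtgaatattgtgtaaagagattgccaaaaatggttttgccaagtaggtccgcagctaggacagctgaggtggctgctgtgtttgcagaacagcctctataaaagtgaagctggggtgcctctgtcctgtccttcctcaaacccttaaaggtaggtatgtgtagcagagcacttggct
The shared run is 20 bases long and began 130 bases before the start in Myh2, 165 bases before it in Myh1 and 163 bases before it in Myh4. Among all 32851 windows, read on both strands, it was found in 3, those of Myh1, Myh2 and Myh4. The binding motif of MEF2 factors, regulators of muscle genes, was matched once each in Myh1 and Myh4 and in 3.19% of all windows. Promoter windows were found for 8 of the 10 isoforms.

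Tnnc2 (ENSMUSG00000017300, chromosome 2, positions 164777161 to 164779967) stood apart from the rest of the fast set. It encodes fast troponin C, the partner of Tnnt3 and Tnni2 in the same complex, and yet it had 7, 2, 7 and 6 counts in knockout and 9, 7, 6 and 7 counts in wild type. Its level was 0.199 ± 0.0738 CPM in knockout and 0.268 ± 0.0144 CPM in wild type (SD, n = 4 each). In the annotation of the count table, 592 of its 800 exon bases (74.0%) are also exon bases of Ube2c, a cell cycle gene on the opposite strand, and 208 bases belong to Tnnc2 alone. Ube2c had 97 to 337 counts per library in knockout and 123 to 288 in wild type. How reads over bases of 2 genes were assigned, and whether strand was used, is not given in the sources used here. The part of the overlap in the low Tnnc2 count was not tested. The counts are given per gene, so those over the 208 bases of Tnnc2 alone are not known. Tnnc1 made up 57.3% ± 14.4 of Tnnc1 plus Tnnc2 per kilobase in knockout and 54.0% ± 6.31 in wild type (SD, n = 4 each), with overlap, and this share rests on the low Tnnc2 count. Among the other isoforms, exon bases shared with another gene came to 8.1% in Myh1, 7.0% in Myh7 and 3.3% in Myh2, all with genes of the opposite strand, and to 0 in the remaining 6. Reads that align to several myosin heavy chain genes are a further uncertainty of the Myh values.

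**Figure D4:**
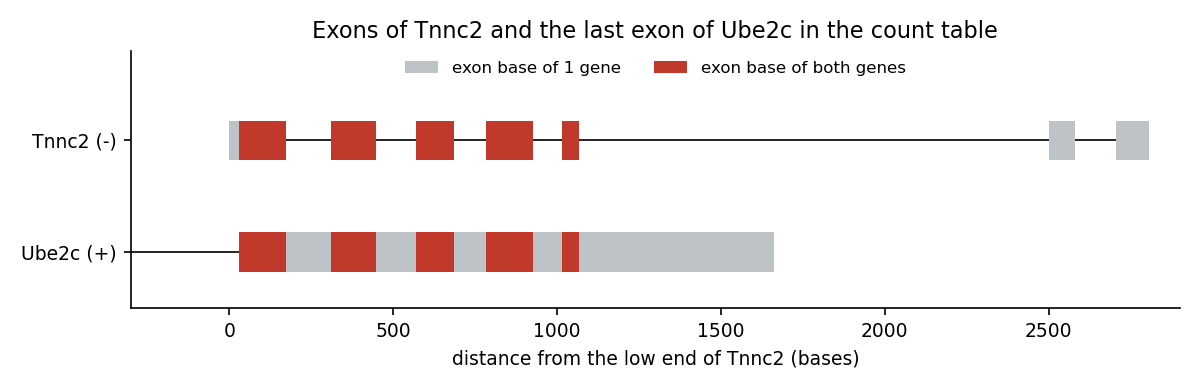
Exons of Tnnc2 (top, minus strand) and the last exon of Ube2c (bottom, plus strand) as the count table lists them, by distance in bases from the low end of Tnnc2. The 592 exon bases that both genes hold are red, and the 208 bases of Tnnc2 alone are grey.

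Troponin T and troponin I genes lie in pairs in the genome. Tnnt3 and Tnni2 form a pair of fast isoforms, while each of the slow isoforms Tnnt1 and Tnni1 lies beside a cardiac isoform. Tnnt1 is 1922 bases from Tnni3, which encodes cardiac troponin I, on the same strand. Tnni3 had 1.32, 0.541, 1.90 and 0.786 CPM in knockout and 2.92, 2.65, 4.20 and 2.57 CPM in wild type, without overlap. Its log2 fold change of -1.38 ± 0.34 (SE) did not pass (edgeR adjusted p = 0.0698). On chromosome 1, Tnni1 lies 25364 bases from Tnnt2, which encodes cardiac troponin T and stood at 0.14 ± 0.22, with overlap and adjusted p = 0.753. On chromosome 7, Tnnt3 and Tnni2 lie 54425 bases apart, with the values given above. Within 50 kb of Tnnt1, 8 other genes are listed, of which 5 were tested and 0 passed. Besides Tnni3 these were Dnaaf3 at -0.84 ± 0.27, Gm15494 at -0.08 ± 0.45, Eps8l1 at 0.04 ± 0.10 and Ppp1r12c at 0.02 ± 0.09 (log2 fold change ± SE). These neighbours were chosen after their values were seen, and 86 exon bases of Tnni3 are shared with Dnaaf3.

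Muscle genes outside the family gave no call in edgeR. Of 92 such genes in 6 lists, 87 were tested and 0 passed, against 1.41% of all genes tested. With so low a share over all genes, nothing is read from the 0. An unadjusted p under 0.05 was seen in 23 (26.4%), against 19.5% of all genes. DESeq2 called 8 of the 87 (9.2%), against 6.16% of all genes, and limma voom with library weights called 9 (10.3%), against 13.3% of all genes. Their median log2 fold change was 0.04, and that of all genes was -0.02.

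Other genes of slow or oxidative fibres (12 tested) had a median log2 fold change of 0.10, with 8 above and 4 below 0, and 0 passed the edgeR test. Myh7b, a slow myosin heavy chain gene, had 1.66, 3.62, 2.03 and 2.54 CPM in knockout and 0.467, 1.10, 1.18 and 0.505 CPM in wild type. Every knockout library was above every wild-type library, the opposite order to Tnnt1, at a log2 fold change of 1.62 ± 0.35 (SE) and adjusted p = 0.0502, just outside the threshold. Myoz2, a Z-disc protein gene of slow fibres, had 16.0 to 21.6 CPM in knockout and 22.1 to 35.8 CPM in wild type, lower in every knockout library, at -0.50 ± 0.16 (SE, edgeR adjusted p = 0.143). The sarcoplasmic calcium pump gene Atp2a2 stood at 0.24 ± 0.10 and the calcium store gene Casq2 at -0.22 ± 0.20. The summed level of the 14 listed genes was 1551 to 1776 CPM in knockout and 1258 to 1683 CPM in wild type. That is far above the 4 slow isoforms, at 2.43 to 12.05 CPM over all libraries. Which cells of whole skin the listed RNAs came from was not tested, so the list is no measure of slow fibres alone.

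Other fast fibre genes (14 tested) had a median of -0.09, with 5 above and 9 below 0. The fast myosin light chain genes lay lower in every knockout library. Mylpf stood at 833 ± 83.8 CPM in knockout and 1156 ± 141 CPM in wild type, and Myl1 at 476 ± 44.7 CPM in knockout and 673 ± 94.3 CPM in wild type (SD, n = 4 each). Their log2 fold changes were -0.46 ± 0.12 and -0.48 ± 0.12 (SE), with adjusted p of 0.0949 and 0.0810. Myoz3, another Z-disc gene, stood at 0.49 ± 0.17 and the glycolytic enzyme gene Pfkm at 0.38 ± 0.16, and neither passed. Fibre-type-independent muscle genes (27 tested) had a median of 0.08 with 20 above 0, led by Myom2 and Cacna1s, each at 0.41. Wild-type replicate 1, which was highest in Tnnt1, had the lowest sum of this list.

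Cardiac and developmental isoforms (8 tested) had a median of -0.09. Besides Tnni3, Myl4, an atrial and embryonic light chain gene, stood at -0.60 ± 0.16 and did not overlap between genotypes, while Actc1, cardiac actin, stood at -0.79 ± 0.43 with overlap. Muscle regulators (17 tested) had a median of 0.04 and ran between -1.08 and 0.31, with 10 above and 7 below 0. Nfatc1, a calcium-dependent transcription factor known for its role in slow fibres, had 85.1 ± 6.43 CPM in knockout and 112 ± 10.1 CPM in wild type (SD, n = 4 each), at -0.37 ± 0.08 (SE, adjusted p = 0.0578). Sox6, a repressor of slow fibre genes, stood at 0.29 ± 0.10 and Mef2c at 0.26 ± 0.10. In whole skin these regulator RNAs cannot be assigned to muscle, and their part in the Tnnt1 difference was not tested. Genes of the neuromuscular junction (9 tested) had a median of -0.07, with Musk, its organizing kinase, at 0.90 ± 0.25, Lrp4 at 0.15 ± 0.07, Chrna1 at -0.51 ± 0.23 and Colq at -0.54 ± 0.25. None of these passed the edgeR test.

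**Figure D5:**
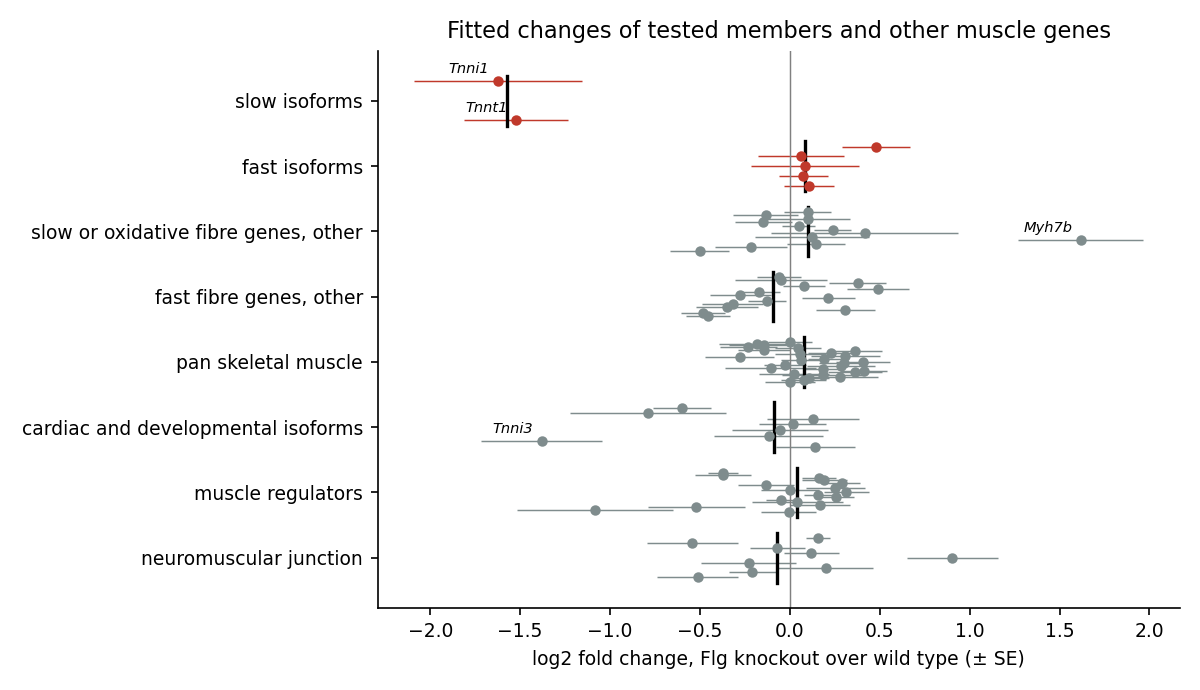
Log2 fold change of knockout over wild type with its standard error for the 7 tested isoforms (red) and for the other muscle genes tested (grey), by list, with each list's median as a black line. Tnnt1 and Tnni1 lie near -1.5, the 5 fast isoforms between 0.06 and 0.48, and the medians of the other lists between -0.09 and 0.10.

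The summed levels of other cell types are given here beside Tnnt1. The sums of the smooth muscle and dermal papilla lists did not overlap between genotypes, and those of the other 6 lists did. White adipocyte genes (12 of 12 tested, 11 above 0) summed to between 3602 and 5480 CPM in knockout and to between 2293 and 4763 CPM in wild type. Their median log2 fold change was 0.78, against 0.23 for smooth muscle and -0.23 for dermal papilla genes. Among them Lep stood at 2.43 ± 0.55 without overlap and Plin4 at 1.15 ± 0.27 with overlap (SE), and neither passed the edgeR test. Smooth muscle and pericyte genes (7 of 9 above 0) summed to 896 to 974 CPM in knockout and 654 to 849 CPM in wild type. Dermal papilla genes (5 of 7 below 0) summed to 121 to 132 CPM in knockout and 151 to 182 CPM in wild type. Of this sum Prlr alone held 69.8 to 83.4 CPM in knockout and 92.1 to 124 CPM in wild type. Sox18, Corin and Hhip of the same list overlapped between genotypes. Keratinocyte markers were all 7 below 0. Melanocyte genes (5 of 7 tested below 0) summed to 43.9 to 113 CPM in knockout and 44.9 to 91.8 CPM in wild type. Of this list 1 gene, Mlana, was called lower, at -1.83 ± 0.30 (SE, edgeR adjusted p = 0.0231). Brown adipocyte genes (5 of 5 tested below 0) summed to 51.9 to 77.3 CPM in knockout and 70.1 to 116 CPM in wild type. Hair matrix genes (4 of 8 tested below 0) summed to 219 to 314 CPM in knockout and 218 to 330 CPM in wild type, and Schwann cell genes (5 of 6 below 0) to 486 to 651 CPM in knockout and 381 to 821 CPM in wild type. When the white adipocyte level entered the fit, Tnnt1 stood at a log2 fold change of -1.81 (edgeR adjusted p = 0.178), and when the fibre-type-independent muscle level did, it stood at -1.25 (adjusted p = 0.0884). The white adipocyte list was itself mostly higher in knockout, so that fit cannot tell its level apart from genotype, and it called 0 genes. The part of any list in the Tnnt1 difference was not tested.

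Among the genes compared, the 5 whose profile over the 8 libraries was nearest to Tnnt1 were not on any of the muscle lists. Likeness was the root mean square difference of log2 CPM after each gene was centred on its own mean, over the 15175 genes whose average log2 CPM was 1 or more. Tnni1 and Tnni3, whose means were also lower in knockout, lay under that level and were not compared. The 5 nearest were Ptgds (0.30), which encodes a prostaglandin D synthase, Mamdc2 (0.30), Flg itself (0.30), the matrix gene Tnc (0.32) and Zim1 (0.32). Of these, Ptgds had 4.10, 3.41, 3.73 and 3.14 CPM in knockout and 9.75, 4.21, 7.6 and 8.94 CPM in wild type. All 5 genes had the same lowest wild-type library as Tnnt1. The 5 tested fast isoforms ranked between 11457 (Tnni2) and 14635 (Myh1). This measure is close to the contrast that chose Tnnt1, so it was repeated with each genotype's mean removed. The nearest were then Tead2 (0.15), Map3k6 (0.16), Gm8812 (0.18), Tgfbr3 (0.19) and Ptgds (0.19), and of the fast isoforms Myh4 ranked 3393, Tnni2 12258, Tnnt3 12518, Myh2 14587 and Myh1 15033 of the 15175. With 4 libraries a genotype these ranks describe the libraries at hand.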

How the data were processed

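Messenger RNA of whole back skin was measured by sequencing in 4 Flg knockout and 4 wild-type libraries. GSNAP, featureCounts 1.6.2 and the mm10 build are named in the submitters' processing notes. The authors deposited a table of 49763 features that holds whole-number counts and the exon length of each. The labels name a strand-specific kit and the series' design text a SMART protocol, and the strand setting is not given in the sources used here. The 92 spike-in sequences, with at most 1 read, were left out. Symbols were matched for 49326 of 49671 genes.

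CPM, RPKM and shares were computed here from the deposited counts and library totals. Knockout was compared with wild type in edgeR 4.0.16 (R 4.3.3, filterByExpr, TMM factors, robust quasi-likelihood test) on all 8 libraries, adjusted by Benjamini-Hochberg over 19099 genes and called under 0.05. Standard errors come from the F statistic. The fit was tested on simulated data. Alternatives were other scalings, DESeq2 1.42.0, limma 3.58.1 voom, other filters, list means as covariates and each library left out. Named genes were the isoforms, up to 6 called or the 4 of smallest p per list, and the 5 nearest to Tnnt1 by either measure. A gene that this rule names is not reported here. The isoforms and lists were chosen with earlier results of these data known. Replicates are numbered in sample order, and pair nothing. Counts of any replicate pair differed by more than sampling noise (smallest chi-square over degrees of freedom, 5.46).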

Additional observations from a re-analysis of the deposited data

Results flagged for a closer look

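In groups of 4 libraries, a library was singled out when its gap to the nearest other library, as a part of the group's range, passed Dixon's 95% critical value. Chance flags about 1 in 20 groups. Of 200 groups examined, 13 held such a library. Wild-type replicate 1 was highest in Tnnc1, at 0.584 CPM against 0.350 to 0.378 CPM in the other wild-type libraries, from 20 counts. The same library was lowest in Cacna1s (104.9 CPM, against 168 to 172 CPM), in Myom1 (211 CPM, against 325 to 343 CPM) and in the sum of the slow or oxidative list (1258 CPM, against 1627 to 1683 CPM). Wild-type replicate 2 was lowest in 2 of the genes most like Tnnt1, Tnc (20.5 CPM, against 50.3 to 52.5 CPM) and Zim1 (9.39 CPM, against 13.6 to 14.3 CPM), and highest in Ivl (72.0 CPM, against 53.7 to 56.2 CPM). Wild-type replicate 3 was highest in Lep, at 36.2 CPM against 8.12 to 12.4 CPM.

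Among knockout libraries, replicate 1 was highest in Dct (49.2 CPM, against 17.1 to 19.0 CPM) and in the sum of the melanocyte list (113 CPM, against 43.9 to 47.3 CPM). Replicate 3 was lowest in Plin4, at 321 CPM against 585 to 626 CPM. Replicate 4 was highest in the inner root sheath keratins Krt71 (23.0 CPM, against 0.271 to 0.545 CPM) and Krt27 (6.81 CPM, against 0.284 to 0.325 CPM).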

How the results depend on the processing

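The call of Tnnt1 depended on the fit. Over 17 alternatives its log2 fold change ran between -1.81 and -1.25, and its adjusted p, between 6.09e-05 and 0.178, was under 0.05 in 9. Of 101 fits of the other tested isoforms, 98 differed from the reported value by less than the spread between replicates. The exceptions came with the white adipocyte list as a covariate, at 0.44 for Tnnt3, 0.45 for Tnni2 and -0.40 for Myh2. Tnni1 had an adjusted p under 0.05 in 3 fits: with DESeq2 (0.0449), with limma voom (0.0169) and without wild-type replicate 2 (0.0482). It entered these fits mainly through its wild-type counts, so nothing is read from them.

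Of all genes, 270 were called, against 502 without the filter, 1177 with DESeq2, 2535 with limma voom, 37 with the muscle covariate and 0 with the adipocyte covariate (2233 at an unadjusted p under 0.05). Leaving out 1 library gave 11 to 1325, the lowest without knockout replicate 2 and the highest without wild-type replicate 3. Of the other muscle genes, 0 were called, against 1 with upper-quartile scaling, 6 without the filter, 8 with DESeq2, 9 with limma voom and 0 to 3 with 1 library left out. With raw counts in place of counts per kilobase, the slow share was 0.118% for Tnnt1 in knockout, 0.0303% in knockout and 0.110% in wild type for Tnni1, 60.4% for Tnnc1 in wild type (54.0% per kilobase), and 0.00254% in knockout and 0.0029% in wild type for Myh7. The raw-count shares differ from those per kilobase only through exon length, such as 3600 bases in Tnni1 and 1497 in Tnni2. The cause of the shifts in called genes was not tested. No paired analysis was possible because the replicate numbers only follow sample order. Tnnc1, Myh7 and Tnnc2 had at most 20 counts in a library, which limits what could be detected for them.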
